A study of Mus musculus with 82 samples.

Results

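The 10 genes described here move calcium out of and into the stores of a cell, across its plasma membrane and into its mitochondria. They were chosen by symbol, 10 of the 27515 genes in the deposited count table: the release channels Itpr1 and Ryr2, the pumps Atp2a2, Atp2b1 and Atp2b2, the sodium-calcium exchangers Slc8a1, Slc8a2 and Slc8a3, and the mitochondrial uniporter subunits Mcu and Mcub. All 10 had enough counts to be tested.

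A calcium signal in a neuron is raised by entry through surface channels and by release from the endoplasmic reticulum, and it is ended by pumps and exchangers. The inositol trisphosphate receptor and the ryanodine receptor release stored calcium, the SERCA pump returns it to the store, the plasma membrane pump and the sodium-calcium exchanger expel it, and the mitochondrial uniporter takes it up. In the suprachiasmatic nucleus (SCN), the seat of the central circadian clock in the hypothalamus, cytosolic calcium follows a daily rhythm, and release from ryanodine-sensitive stores is one of its known sources.

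The study mapped expression over the mouse SCN in 82 hexagons, each with a largest radius of 40 µm, which were cut from cresyl violet-stained sections by laser capture and sequenced with Smart-seq2, which amplifies whole cDNA molecules from minute amounts of RNA. All hexagons came from C57BL/6 mice aged 8 weeks, with no treatment or genotype that differed between them. They fall into 9 sections by the anterior-posterior coordinate, from 47 to 431, with 4, 6, 12, 14, 12, 14, 13, 6 and 1 hexagons, and the dorsal-ventral coordinate ran from 301 to 917 and the medial-lateral one from 1100 to 1517. The labels give these coordinates without a unit, do not say which end of an axis is which, and name no animal, so that hexagons may share an animal and p-values over hexagons are too small.

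Library totals ran from 11905 to 2843366 counts (median 542267.5), and 5 libraries lay under the median divided by 3. The lowest, replicate 4 of section 4, stood apart from the next, at 118442 counts, and had no count of any member but Atp2a2. The SCN neuron markers Vip, Avp, Nms, Prok2, Six3, Lhx1, Zfhx3 and Rorb were detected, with a summed level of 360 to 18673 CPM (counts relative to the library total after TMM scaling) per hexagon. Slc17a7, the vesicular glutamate transporter of cortical neurons, was at 0 counts throughout. The other 2 glutamatergic markers, Slc17a6 and Slc17a8, had counts, with a summed level of 0 to 230 CPM and a median of 0. Astrocyte and oligodendrocyte markers were also present in most hexagons, so each value below is that of a small piece of mixed tissue. In such samples fewer cells of a type and less RNA per cell cannot be told apart.

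Sequences before the annotated start are shown for Slc8a3 and Mcub, the members whose level followed position, and for Slc8a1, the relative of Slc8a3 with more counts, whose slopes did not pass the test. Each is the 250 bases before the start in RefSeq's table for GRCm38.p6, on the gene's strand, which is the minus strand in all 3 cases, and capitals mark the only match to a searched motif. The Slc8a3 stretch lies at chr12:81333181-81333430, the Mcub stretch at chr3:129970207-129970456 and the Slc8a1 stretch at chr17:81738388-81738637.
Slc8a3: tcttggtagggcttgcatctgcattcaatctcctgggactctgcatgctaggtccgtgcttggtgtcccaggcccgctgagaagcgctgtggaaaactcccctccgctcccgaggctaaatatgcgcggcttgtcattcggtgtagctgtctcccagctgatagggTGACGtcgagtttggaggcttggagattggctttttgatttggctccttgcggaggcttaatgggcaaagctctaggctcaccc
Mcub: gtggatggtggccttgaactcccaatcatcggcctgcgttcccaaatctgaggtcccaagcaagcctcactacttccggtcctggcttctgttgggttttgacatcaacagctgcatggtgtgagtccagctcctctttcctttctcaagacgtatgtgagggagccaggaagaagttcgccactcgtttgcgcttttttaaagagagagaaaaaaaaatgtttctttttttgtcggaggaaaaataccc
Slc8a1: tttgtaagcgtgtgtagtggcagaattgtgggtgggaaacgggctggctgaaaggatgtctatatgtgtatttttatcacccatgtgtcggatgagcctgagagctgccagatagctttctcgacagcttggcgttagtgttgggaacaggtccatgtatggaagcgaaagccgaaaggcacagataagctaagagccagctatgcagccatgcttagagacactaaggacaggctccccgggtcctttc
Windows of 300 bases, 250 before and 50 after the start, were searched on both strands for the E-box CACGTG, the cAMP response element TGACGTCA, its core TGACG, which the whole element contains, the D-box TTATGTAA and the ROR core AGGTCA. The Slc8a3 window held TGACG at position -84, counted from the start, and no match to the other motifs, and the Mcub and Slc8a1 windows held no match. Among 32851 RefSeq promoter windows 20.8% held TGACG, 7.15% the E-box, 1.79% the whole cAMP response element, 0.938% the D-box and 16.3% AGGTCA. Among the other members, a Ryr2 window held AGGTCA at -117, an Atp2b1 window held an E-box at 9 and TGACG at 6, and an Atp2b2 window held a D-box at -57. For Itpr1 and Atp2a2 no window was available, so they were not searched. These matches are descriptions of the letters only.

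**Figure D1:**
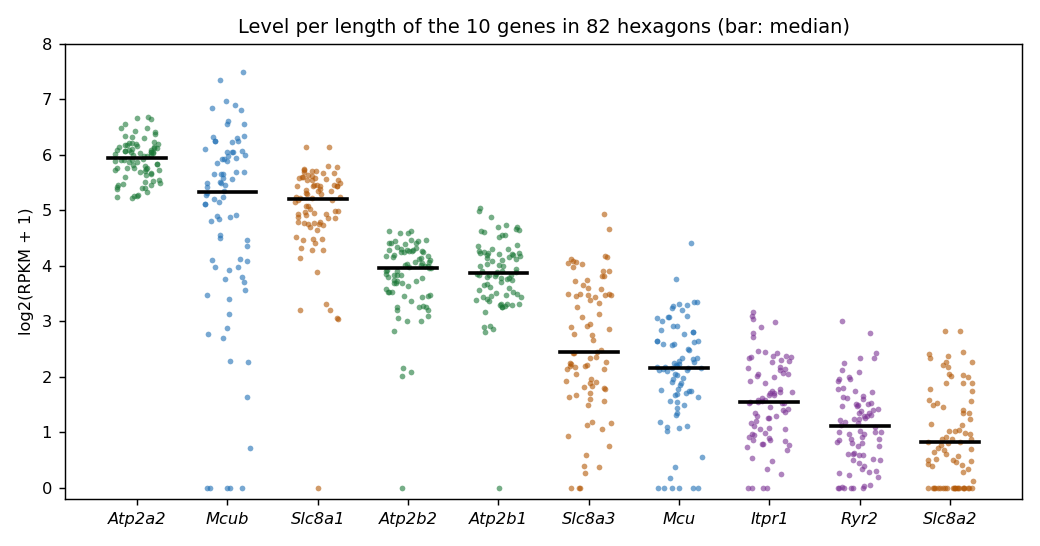
Each point is a hexagon (82 per gene), the vertical axis is log2(RPKM + 1) and the bar is the median, with the genes ordered by their median RPKM from 60.8 for Atp2a2 to 0.765 for Slc8a2. Colours mark release channels (purple), pumps (green), exchangers (orange) and uniporter subunits (blue).

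Measured per length, as RPKM (reads relative to gene length and library total), the store pump Atp2a2 stood highest with a median of 60.8 RPKM, followed by Mcub at 39.3 RPKM and Slc8a1 at 35.8 RPKM. The plasma membrane pumps came next, with medians of 14.6 RPKM for Atp2b2 and 13.7 RPKM for Atp2b1. Slc8a3 had a median of 4.45 RPKM, Mcu 3.46 RPKM, Itpr1 1.94 RPKM, Ryr2 1.16 RPKM and Slc8a2 0.765 RPKM. The pumps and the first exchanger were thus higher per length than the release channels. Atp2a2 exceeded Mcub in 59 of 82 hexagons, Slc8a1 exceeded Atp2b2 in 78, Atp2b1 exceeded Slc8a3 in 67 and Itpr1 exceeded Ryr2 in 57. The other neighbours in the order were not separated by their spread: Mcub was higher than Slc8a1 in 43 hexagons and lower in 38, Atp2b2 was higher than Atp2b1 in 38 and lower in 43, Slc8a3 was higher than Mcu in 48 and lower in 32, Mcu was higher than Itpr1 in 49 and lower in 31, and Ryr2 was higher than Slc8a2 in 44 and lower in 35. The place of Slc8a1 depends on the length: the deposited table gives it 2934 bases, its merged exons in GENCODE M21 come to 18807 bases, and over the latter its median is 5.58 CPM per kilobase. For the other 9 members the deposited length equals that of the merged exons.

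Slc8a3, a sodium-calcium exchanger of neurons and muscle, and Mcub, the uniporter subunit that dampens mitochondrial uptake, were the members whose level followed position within sections. Slc8a3 was lower at higher dorsal-ventral and higher at higher medial-lateral coordinates, and Mcub was lower at higher medial-lateral coordinates. Slopes are log2 changes per 100 coordinate units from edgeR's quasi-likelihood test over 11469 genes, with section and both coordinates in the model and Benjamini-Hochberg adjustment over all of them. Along the dorsal-ventral coordinate 1 of 10 members passed an adjusted p of 0.05, against 0.793% of all genes tested and 0.288% in its direction (58 higher and 33 lower with TMM scaling, 58 and 51 with library size alone). Along the medial-lateral coordinate 2 of 10 passed, 1 in each direction, against 1.38% of all genes, of which 0.82% were higher and 0.558% lower at higher coordinates. The median slope of the 10 members was 0.05 on the first axis and 0.02 on the second, beside 0.00 and -0.00 over all genes tested.

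**Figure D2:**
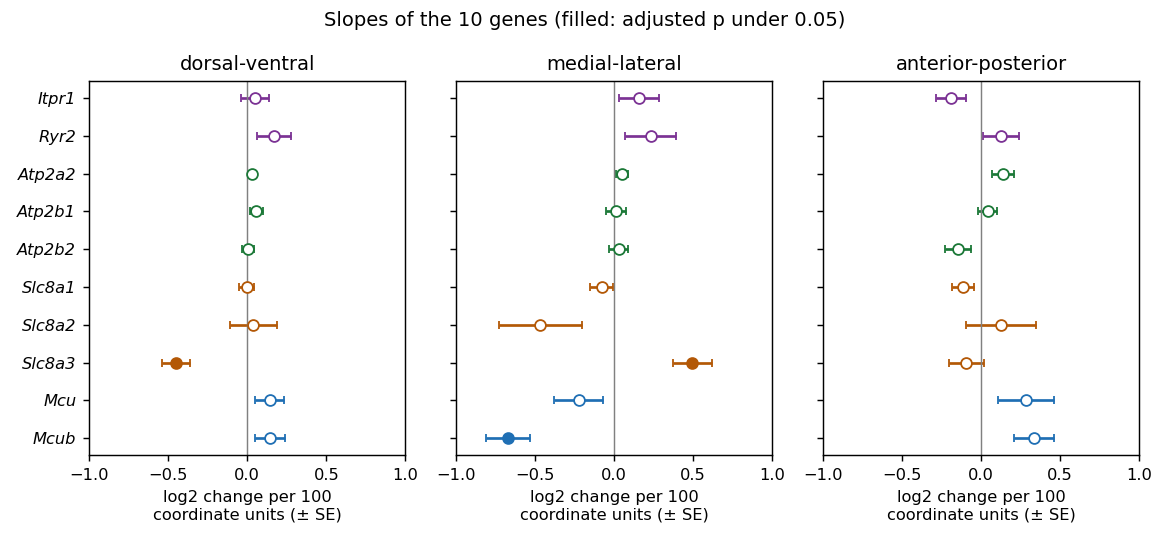
Each point is the slope of a gene along a coordinate, in log2 change per 100 coordinate units, with its standard error as the bar, and filled points passed an adjusted p of 0.05. Slc8a3 is filled on the dorsal-ventral axis (-0.45) and the medial-lateral axis (0.49), Mcub is filled on the medial-lateral axis (-0.67), and no point is filled on the anterior-posterior axis.

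The release channels come first. Itpr1 (ENSMUSG00000030102, chr6:108213096-108551109, GRCm38, plus strand), the inositol trisphosphate receptor that is the main type in neurons, ranged from 0 to 156 CPM with a median of 36.9 CPM and had counts in 78 of 82 libraries. Its 3 highest hexagons lay in sections 3, 1 and 7, at 156, 136 and 135 CPM. Hexagons were divided by rank into a low, a middle and a high band of 27, 28 and 27 along each coordinate. In the low band of the dorsal-ventral coordinate it ran from 0 through a median of 39.1 to 156 CPM, and in the high band from 0 through 36.3 to 135 CPM, so the bands overlapped almost entirely. Its slope was 0.05 ± 0.09 (SE) on the dorsal-ventral and 0.16 ± 0.13 on the medial-lateral axis, with edgeR adjusted p-values of 0.988 and 0.713. By medial-lateral band its medians were 32.2, 37.9 and 57.8 CPM. The exons of Itpr1 share 289 bases with 2 genes on the other strand, Gm44101 and Gm44040, and the strand setting of the counting is not given in the sources used here.

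Ryr2 (ENSMUSG00000021313, chr13:11553102-12106945, minus strand), the ryanodine receptor also found in heart muscle, ranged from 0 to 217 CPM with a median of 34.5 CPM. It was the most variable of the members with a mean above 20 CPM, with an SD of 39.4 around a mean of 42.2 CPM, a coefficient of variation of 93.2%. Its highest value, 217 CPM, was in replicate 13 of section 7, and the next, 174 CPM, in replicate 6 of section 8. By dorsal-ventral band its medians were 20.1, 37.4 and 43.8 CPM, and by medial-lateral band 23.4, 50.2 and 33.5 CPM, within ranges that overlapped. The slopes of 0.17 ± 0.11 and 0.23 ± 0.16 (SE) did not pass, with edgeR adjusted p-values of 0.777 and 0.651. A test of 5 position terms together, which also detects a peak inside the section, gave an adjusted p of 0.752 with edgeR and 0.0199 with limma voom. The slope of Ryr2 minus that of Itpr1 was 0.23 ± 0.18 (SE) on the dorsal-ventral axis, with an adjusted p of 0.313 by permutation over 12 such tests, and 0.43 ± 0.16 with an adjusted p of 0.0291 without section 8.

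The pumps varied less over the hexagons, with coefficients of variation of 26.0% to 41.3%, than the channels, with 76.7% and 93.2%. They also had more counts, with medians of 92 to 217.5 per library against 16.5 and 21. The biological coefficient of variation in edgeR was 0.242 to 0.362 for the pumps and 0.741 and 0.924 for the channels. At these levels the trend over all genes gives 0.341 to 0.382 and 0.653 and 0.674. How far depth accounts for the difference was not tested. Atp2a2 (ENSMUSG00000029467, chr5:122453513-122502225, minus strand), the SERCA pump that refills the endoplasmic reticulum, was detected in all 82 libraries at 164 to 634 CPM, with a median of 374 CPM. The lowest value is that of the library of 11905 counts, and the next was 227 CPM. Its biological coefficient of variation in edgeR was 0.242, below the 0.341 that the trend over genes gives at its level. Its bands overlapped on both axes, with medians of 384, 347 and 396 CPM from the low to the high dorsal-ventral band and of 343, 404 and 389 CPM from the low to the high medial-lateral band. The dorsal-ventral slope was 0.03 (95% interval -0.02 to 0.08) and the medial-lateral slope 0.05 (-0.03 to 0.12), with edgeR adjusted p-values of 0.877 and 0.715. Its exons share 83 bases with Gm43361 on the other strand.

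Atp2b1 (ENSMUSG00000019943, chr10:98914406-99026143, plus strand) is the plasma membrane calcium pump found in most cells, and ranged from 0 to 490 CPM with a median of 216 CPM. The 0 is that of the library of 11905 counts, and the next lowest value was 88.1 CPM. Its highest value was that of the lone hexagon of section 9, at 490 CPM. Its dorsal-ventral bands had medians of 197, 255 and 216 CPM and overlapped. Atp2b2 (ENSMUSG00000030302, chr6:113743831-114042613, minus strand), the fast plasma membrane pump of neurons and hair cells, ranged from 0, in the same library, and 40.7 in the next lowest to 314 CPM, with a median of 183 CPM. Its medial-lateral bands had medians of 170, 231 and 178 CPM, again overlapping. The dorsal-ventral slopes were 0.06 ± 0.04 (SE) for Atp2b1 and 0.00 ± 0.04 for Atp2b2, and the medial-lateral slopes 0.01 ± 0.06 and 0.03 ± 0.06, and none passed the edgeR test. The 2 pumps also did not separate from each other: the slope of Atp2b2 minus that of Atp2b1 was -0.07 ± 0.05 (SE) and 0.07 ± 0.07 on the 2 axes, with adjusted p-values of 0.225 and 0.454 by permutation.

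Slc8a1 (ENSMUSG00000054640, chr17:81373105-81738377, minus strand), the sodium-calcium exchanger best known from the heart, was the highest of the 3 exchangers, at 0 to 216 CPM with a median of 109 CPM, where the 0 is again that library and the next lowest value was 22.6 CPM. It exceeded Slc8a3 in 74 of 82 hexagons in CPM. The medians of its bands lay close together: the dorsal-ventral bands were at 109, 101 and 112 CPM and the medial-lateral bands at 106, 115 and 99.96 CPM. Its slopes were -0.00 (95% interval -0.09 to 0.09) and -0.08 (-0.22 to 0.06), with edgeR adjusted p-values of 0.999 and 0.769. Its exons share 304 bases with AC122399.1 and Gm11096 on the other strand.

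Slc8a2 (ENSMUSG00000030376, chr7:16129826-16161063, plus strand), an exchanger of brain, was at the limit of detection. It had 401 counts in all, a median of 2 counts per library and no count in 22 of 82 libraries, and its highest level was 33.2 CPM in replicate 7 of section 3. By medial-lateral band its medians were 6.54, 4.10 and 2.03 CPM, with 6, 6 and 10 libraries at 0. The slope of -0.47 ± 0.26 (SE) did not pass, with an edgeR adjusted p of 0.51.

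Slc8a3 (ENSMUSG00000079055, chr12:81197915-81333180, minus strand) ranged from 0 to 165 CPM with a median of 25.3 CPM. In the low dorsal-ventral band (27 hexagons, coordinates 301 to 578) it ran from 0 through a median of 55.1 to 92.4 CPM, with a mean of 49.6 ± 29.1 (SD). In the middle band (28 hexagons) it ran from 1.11 through 32.7 to 165 CPM. In the high band (27 hexagons, coordinates 743 to 917) it ran from 0 through 13.8 to 57.0 CPM, with a mean of 18.6 ± 17.6 (SD). The outer bands overlapped, but the median of the low band lay near the highest value of the high band. The slope was -0.45 ± 0.09 (SE), with an edgeR adjusted p of 0.00121, and it was negative in 8 of the 8 sections with more than 1 hexagon. Within sections the slope of log2(CPM + 1) ran from -0.74 in section 3 to -0.16 in section 1.

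On the medial-lateral axis Slc8a3 went the other way. Its low band ran from 0 through a median of 19.8 to 89.7 CPM, its middle band from 1.11 through 22.0 to 92.4 CPM and its high band from 0 through 51.4 to 165 CPM. These ranges overlapped, and the rise lay between the middle and the high band. The slope was 0.49 ± 0.12 (SE), with an edgeR adjusted p of 0.0194, and was positive in 7 of 8 sections, with section 8 at -0.62. Its adjusted p was 0.0952 without section 3, 0.182 without section 6, 0.0801 without section 7 and 0.212 with the library set, a letter in the labels, as a further factor (slope 0.47). The library set follows 36.0% of the spread of the medial-lateral coordinate within sections and 2.33% of that of the dorsal-ventral one, so on the medial-lateral axis set and position can only partly be told apart.

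With both coordinates together, Slc8a3 had its highest median, 67.4 CPM, in the 11 hexagons of the low dorsal-ventral and middle medial-lateral bands, which ran from 11.1 to 92.4 CPM. The 4 hexagons of the low dorsal-ventral and high medial-lateral bands had a median of 64.5 CPM (19.9 to 83.0). The 11 hexagons of the middle dorsal-ventral and high medial-lateral bands ran from 34.4 through a median of 60.4 to 165 CPM. The 8 hexagons of the middle dorsal-ventral and low medial-lateral bands ran from 4.86 through 19.4 to 31.0 CPM, and these 2 cells of the grid did not overlap. The cells were not chosen in advance, and the share of all genes without overlap between them was not counted. In the high dorsal-ventral band all 3 medial-lateral bands were low, with medians of 11.4, 13.99 and 13.95 CPM. The highest value, 165 CPM from 185 counts, was in replicate 3 of section 3, at dorsal-ventral 671 and medial-lateral 1517, where Nms, the neuropeptide of many SCN neurons, stood at 0.891 CPM. The second, 131 CPM, was in replicate 14 of section 6, at 688 and 1507, with Nms at 67.2 CPM. Both lie at the far end of the medial-lateral coordinate.

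**Figure D3:**
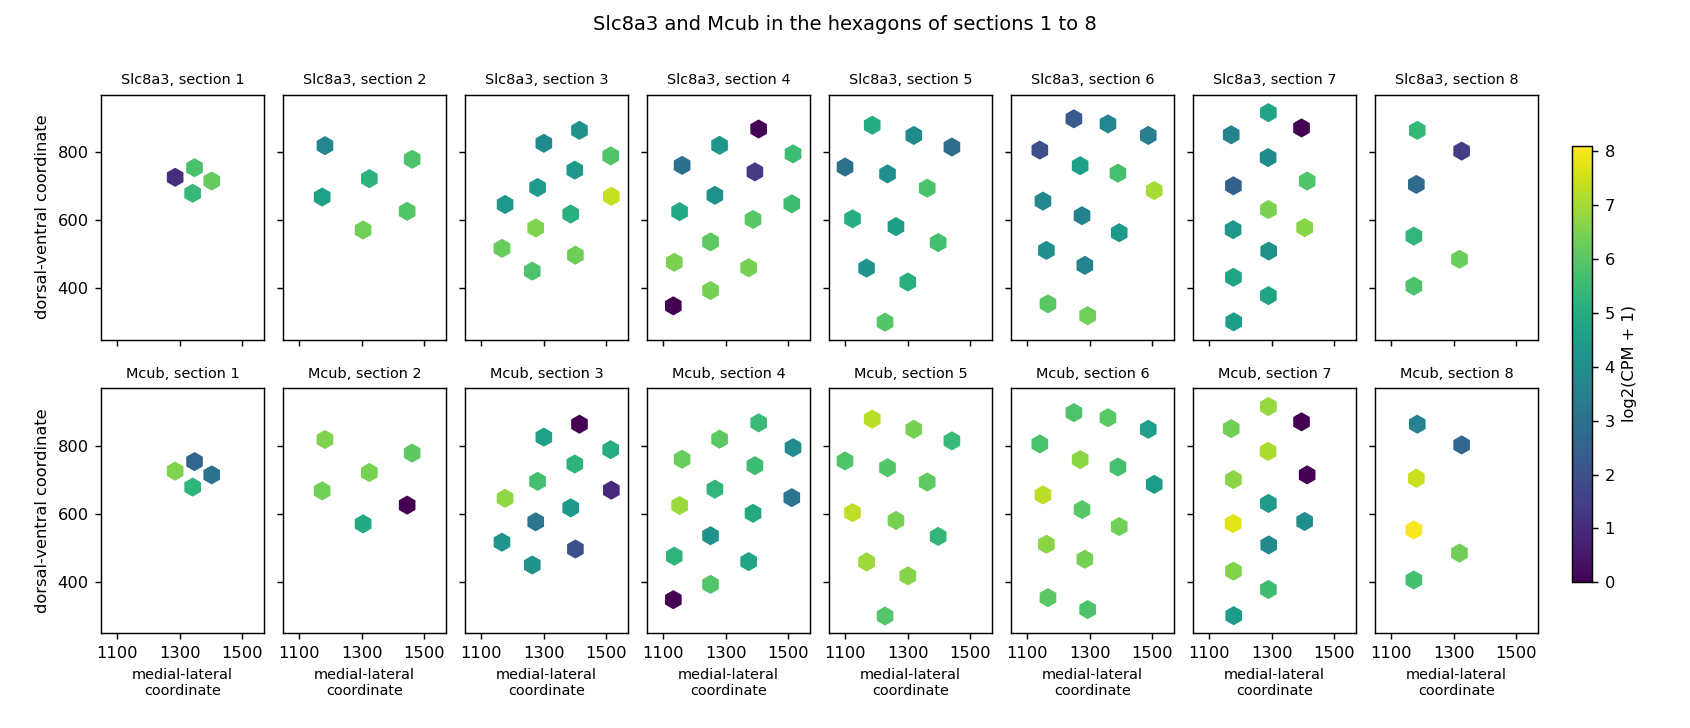
Each hexagon is placed by its medial-lateral (horizontal) and dorsal-ventral (vertical) coordinate in sections 1 to 8 and coloured by log2(CPM + 1), with Slc8a3 in the upper row and Mcub in the lower. Slc8a3 is brightest at 165 CPM in section 3, at high medial-lateral values, and Mcub at 259 CPM in section 8, at low ones.

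The exchangers were compared with each other by the slope of the log2 ratio of their CPM + 1 in each hexagon, with a permutation test (100000 draws within sections, 2-sided, 6 pairs on 2 axes, Benjamini-Hochberg over 12 tests). The pairs were chosen with earlier results of these data known, so these p-values are no separate support for the slopes of Slc8a3. Slc8a2 had no count in 22 of 82 libraries, where its part of the ratio is the pseudocount alone. On the dorsal-ventral axis Slc8a3 fell against Slc8a1 by 0.55 ± 0.11 (SE), with an adjusted p of 0.00012, and against Slc8a2 by 0.54 ± 0.14, with an adjusted p of 0.00104; the first raw p, 1e-05, is the smallest that the draws can give. On the medial-lateral axis it rose against Slc8a1 by 0.48 ± 0.16 (SE), adjusted p 0.0063 by permutation, and against Slc8a2 by 0.94 ± 0.21, adjusted p 0.00012. Slc8a1 and Slc8a2 differed by 0.01 ± 0.13 and 0.46 ± 0.20 (SE), with adjusted p-values of 0.951 and 0.053 by permutation. The medial-lateral difference of Slc8a3 from Slc8a1 had an adjusted p of 0.105 with the library set as a factor and 0.0737 without section 6. In the summed CPM of the 3 exchangers, the share of Slc8a3 was 30.6%, 28.8% and 14.4% from the low to the high dorsal-ventral band, and 20.1%, 23.2% and 31.9% from the low to the high medial-lateral band. Slc8a1 gave most of the rest, since Slc8a2 held 3.52% to 6.17% in the 6 bands. These are shares of CPM, which takes no account of gene length.

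**Figure D4:**
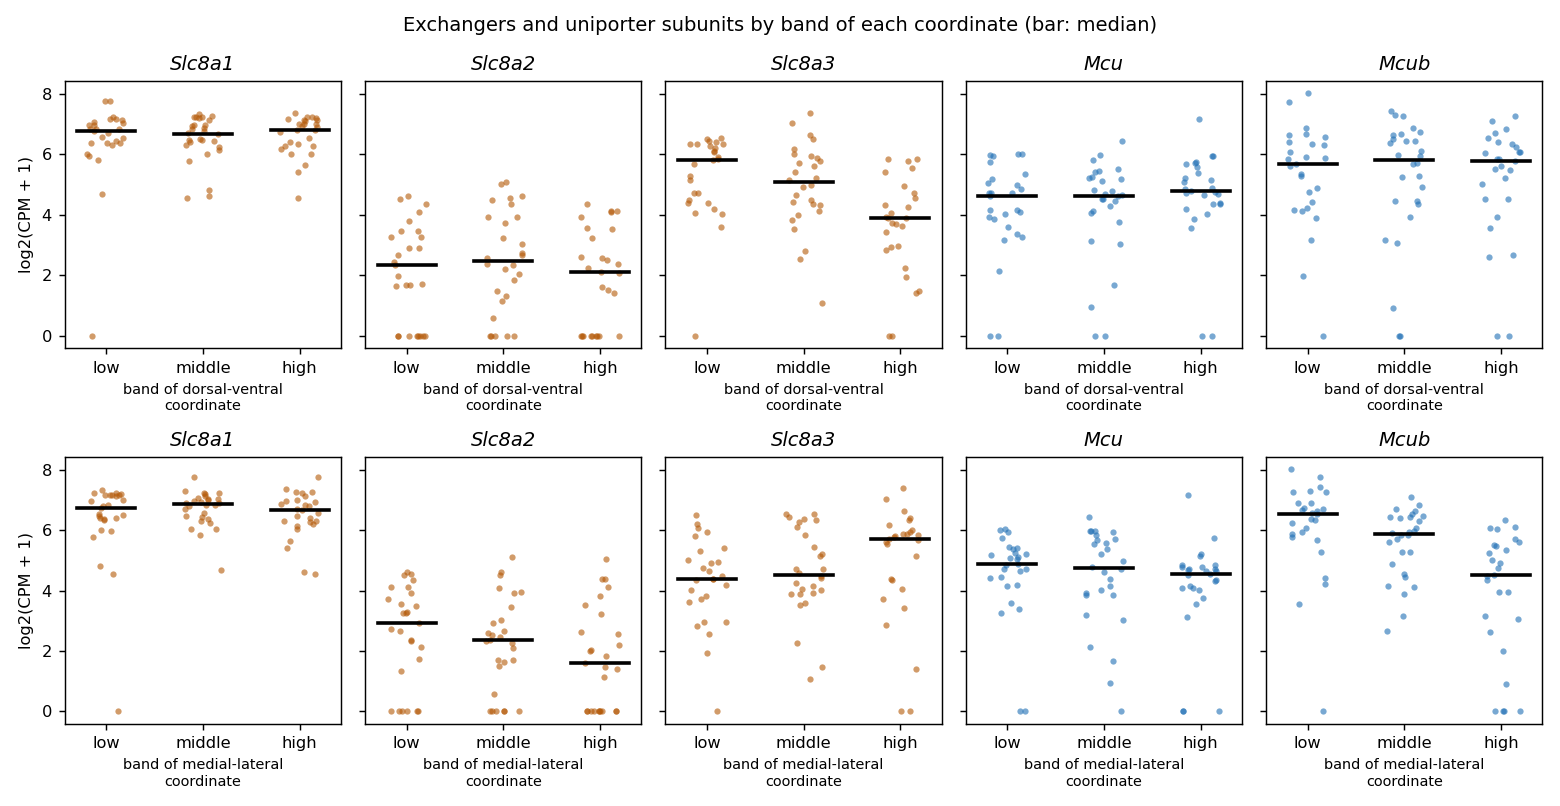
Points are hexagons, bars are medians, and the vertical axis is log2(CPM + 1), with the hexagons divided into bands (27, 28 and 27) by the dorsal-ventral coordinate above and the medial-lateral coordinate below. The medians of Slc8a3 go from 55.1 to 13.8 CPM in the upper row and those of Mcub from 92.2 to 21.9 CPM in the lower row, while Slc8a1 stays between 99.96 and 115 CPM.

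Mcu (ENSMUSG00000009647, chr10:59446984-59616692, minus strand), the pore subunit of the mitochondrial uniporter, ranged from 0 to 142 CPM with a median of 25.1 CPM. Its highest value was in replicate 10 of section 6, from 35 counts. By medial-lateral band its medians were 28.5, 25.9 and 22.2 CPM, in ranges that overlapped, and by dorsal-ventral band they were 23.8, 23.8 and 26.3 CPM. Its slopes of 0.14 ± 0.09 (SE) on the dorsal-ventral and -0.22 ± 0.15 on the medial-lateral axis did not pass, with edgeR adjusted p-values of 0.776 and 0.651.

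Mcub (ENSMUSG00000027994, chr3:129914960-129970206, minus strand) is a close relative of Mcu that joins the same complex and conducts poorly. It ranged from 0 to 259 CPM with a median of 52.6 CPM. Mcub was higher than Mcu in 54 of 82 hexagons in CPM and in 75 in RPKM, where its 1318 bases of exons stand against 6936 for Mcu, and its median RPKM was 11.4 times that of Mcu. In the low medial-lateral band (27 hexagons, coordinates 1100 to 1228) it ran from 0 through a median of 92.2 to 259 CPM, with a mean of 94.1 ± 61.1 (SD). In the middle band (28 hexagons) it ran from 5.38 through 57.5 to 136 CPM. In the high band (27 hexagons, coordinates 1348 to 1517) it ran from 0 through 21.9 to 79.5 CPM, with a mean of 27.6 ± 24.1 (SD). The medians fell from band to band while the ranges overlapped, and the low band held its single 0 beside 4 in the high band.

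The medial-lateral slope of Mcub was -0.67 ± 0.14 (SE), with an edgeR adjusted p of 0.00367, and it was negative in 8 of 8 sections and in 8 of 8 library sets. Within sections it ran from -3.26 in section 1, which has 4 hexagons, and -2.15 in section 7 to -0.35 in section 5. With the library set as a factor the slope was -0.66 ± 0.17 (SE) and the adjusted p 0.0775. Dorsal-ventral bands had medians of 50.5, 55.8 and 53.8 CPM, and that slope was 0.14 ± 0.09 (SE), with an adjusted p of 0.777. The slope of Mcub minus that of Mcu on the medial-lateral axis was -0.44 ± 0.24 (SE), with an adjusted p of 0.0999 by permutation, so that a difference between the 2 subunits did not pass. It passed without section 6 (-0.72, adjusted p 0.0157) and with a pseudocount of 5 (-0.38, adjusted p 0.042).

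Sections 7 and 8 are given as examples, not chosen in advance, and only section 1 had a steeper slope than section 7. With each section divided into a low and a high part by the medial-lateral coordinate, the Mcub values of the parts overlapped in sections 2 to 8. In section 7 the 5 hexagons at medial-lateral 1171 to 1179 had Mcub at 20.5, 79.8, 93.6, 102 and 214 CPM. The 5 hexagons at 1289 to 1291 had 13.8, 20.9, 47.5, 113 and 136 CPM, and the 3 hexagons at 1396 to 1414 had 0, 0 and 14.3 CPM. The last 3 lay below all of the first 5, and their Nms levels were 35.3, 3.05 and 32.2 CPM. Of the first 5, those at 79.8, 102 and 214 CPM are of library set F. Those at 20.5 and 93.6 CPM are of set G, as are the last 3, so set and position are partly mixed here. In section 8 the highest Mcub level of the series, 259 CPM from 271 counts, was in replicate 3, which also had the highest Nms level, 580 CPM. Replicate 2 had 172 CPM of Mcub and 355 CPM of Nms, while replicate 6, second in the section for Nms at 475 CPM, had 77.9 CPM of Mcub. Against the pattern, replicate 1, at a low medial-lateral coordinate of 1184, had only 10.8 CPM of Mcub, with Nms at 55.8 CPM. Also against it, replicate 6, at 1319, lay above replicate 4, at 1173 with 50.5 CPM of Mcub. Replicate 5, at 1326, had 5.38 CPM. In the grid of both coordinates, the 8 hexagons of the middle dorsal-ventral and low medial-lateral bands had Mcub at 81.1 to 172 CPM (median 112) and the 11 hexagons of the middle dorsal-ventral and high medial-lateral bands at 0 to 67.5 CPM (median 14.3), without overlap. Those are the same 2 cells of the grid in which Slc8a3 did not overlap, in the other direction. The grid was made only for these 2 genes, already called on this axis, so the gaps are no separate support for their slopes.

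In the test of 5 position terms together, 2 of 10 members passed, against 2.03% of all genes tested: Slc8a3 with an edgeR adjusted p of 0.00205 and Mcub with 0.0214. The squares and the product of the coordinates alone passed for 0 of 10 members with edgeR, and 0 had an unadjusted p under 0.05. Mcub did not pass without section 4 (adjusted p 0.108), 5 (0.0806), 6 (0.127) or 7 (0.0733), nor with the library set as a factor (0.164), and Slc8a3 did not pass without section 6 (0.0638).

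Some markers of cell types also had slopes that passed edgeR's test, beside 1.38% of all genes on the medial-lateral and 0.793% on the dorsal-ventral axis. Over all genes tested, 48.7% of medial-lateral and 51.5% of dorsal-ventral slopes were positive. The summed CPM of the 8 SCN neuron markers had a median of 3789 in the low and 2166 in the high medial-lateral band (ranges 525 to 16803 and 360 to 13349), all 8 slopes were negative and 3 passed the test. Of the 6 general neuron markers 5 had a positive medial-lateral slope and 1 passed, with medians of the sum of 2078 and 2475 CPM (ranges 787 to 3033 and 1310 to 4296). All 8 astrocyte markers had positive medial-lateral slopes, of which 1 passed, with medians of 4581 and 5522 CPM (ranges 1542 to 7358 and 2776 to 9801), and so did all 8 oligodendrocyte markers, of which 0 passed with any of the 3 tools and 1, Mbp, had an unadjusted p under 0.05, with 1379 and 2090 CPM (ranges 0 to 8495 and 366 to 23401.5). On the dorsal-ventral axis 5 of 6 neuron markers had negative slopes and 1 passed, with medians of 2585 and 2078 CPM (ranges 787 to 3515 and 1310 to 3696) in the low and the high band. Of the 8 SCN neuron markers 6 had positive dorsal-ventral slopes and 1, Vip, passed, with medians of 2761 and 3604 CPM (ranges 525 to 5587 and 938 to 18673). All 5 erythrocyte markers had positive dorsal-ventral slopes and 1 passed, with medians of 24.4 and 36.1 CPM (ranges 0 to 428 and 0.875 to 17001.4). Of 3 tested markers of meningeal fibroblasts 2 passed on the medial-lateral axis with edgeR, 0 with DESeq2 and 1 with limma voom, with medians of 9.91 and 2.04 CPM in the low and the high band (ranges 0 to 604 and 0 to 64.0). Over the 82 hexagons, centred on section means, r of log2(CPM + 1) with the summed SCN neuron markers was 0.58 for Mcub and -0.34 for Slc8a3, and r with the neuron markers was -0.22 for Mcub and 0.50 for Slc8a3. With the sum of the glutamatergic markers, at 0 CPM in the median hexagon, r was -0.44 for Mcub and 0.09 for Slc8a3. The part of these cell types in the slopes was not tested.

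The profile of Mcub over the hexagons was most like those of Nr4a3, a nuclear receptor induced by activity (r = 0.74), Rgs16, a regulator of G-protein signalling in SCN neurons (r = 0.70), and Tmem51 (r = 0.69), among 8170 genes with a mean of 20 CPM or more. Its r with Nms was 0.67 and with Avp, the vasopressin gene, 0.44. The profile of Slc8a3 was most like those of Ndrg4 (r = 0.63), Hs6st2, a heparan sulphate sulphotransferase (r = 0.63), and Rap1gap, a regulator of the GTPase Rap (r = 0.61), and its r with Vip, the neuropeptide of retinorecipient neurons, was -0.30. Mcub and Slc8a3 themselves had r = -0.00. Each r is over 82 hexagons that share library depth as a common source, with the library of 11905 counts among them.

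The 2 plasma membrane pumps had the highest r among the 45 pairs of members, 0.78, followed by Slc8a1 with Atp2b2 at 0.68 and with Atp2b1 at 0.63, beside a median of 0.23 over all pairs. The same 3 genes had the highest r with the number of genes detected, 0.68 for Atp2b1, 0.67 for Atp2b2 and 0.63 for Slc8a1, so depth moves with these values. All 3 stood at 0 in the library of 11905 counts. Their next lowest values were 88.1 CPM for Atp2b1, 40.7 CPM for Atp2b2 and 22.6 CPM for Slc8a1. How far these r and the likenesses below rest on that 1 library was not tested. The genes most like them were Scn2a, a sodium channel, for Atp2b1 (r = 0.88), Eif3k for Atp2b2 (r = 0.86) and Ssb for Slc8a1 (r = 0.79). The others had weaker likenesses, with Sdc2 for Mcu (r = 0.61), Rph3a for Ryr2 (r = 0.56), Plcb1 for Atp2a2 (r = 0.56) and Pik3r1 for Itpr1 (r = 0.55). Plcb1 is a phospholipase that makes inositol trisphosphate.

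**Figure D5:**
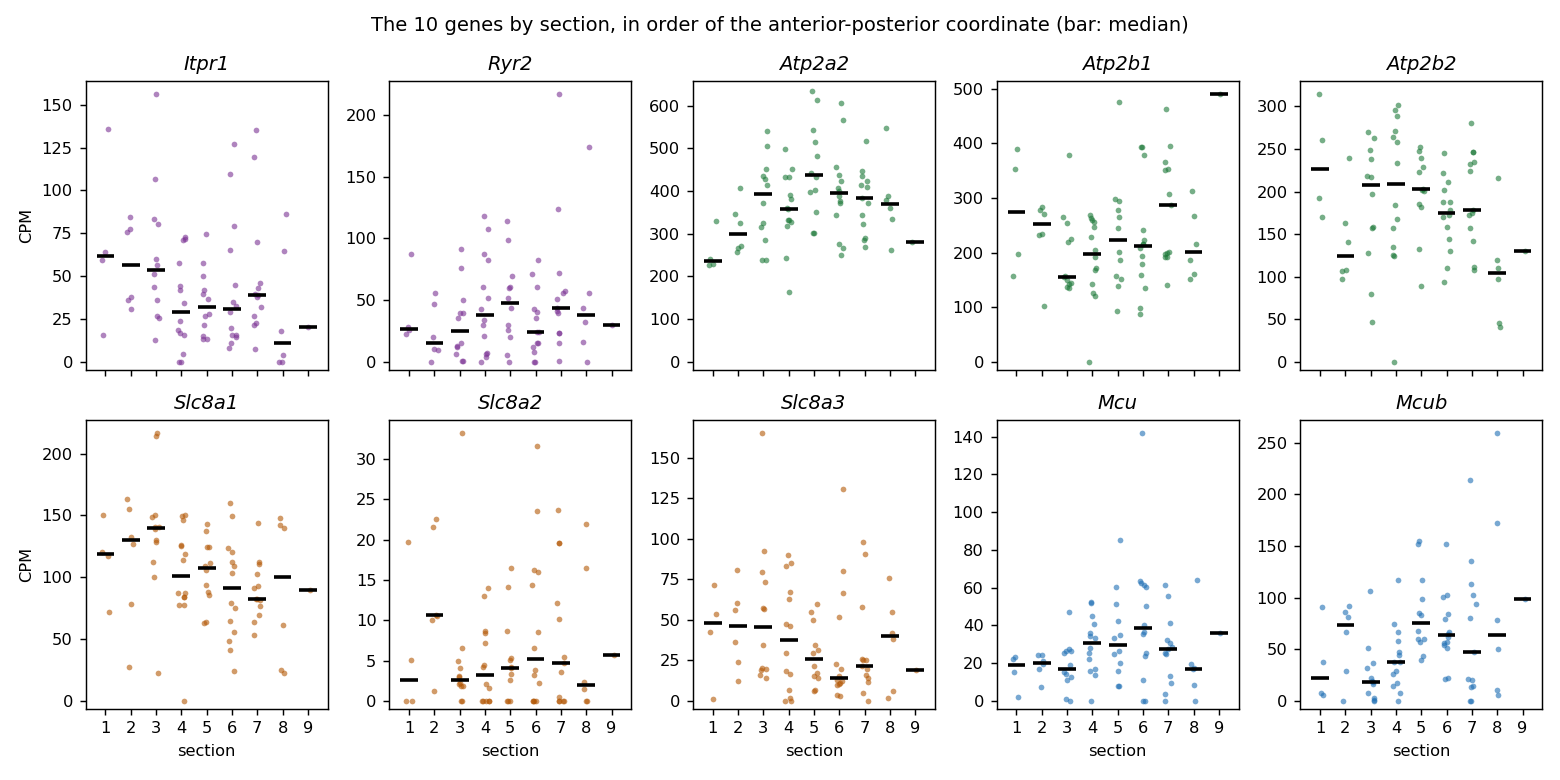
Points are hexagons, bars are section medians and the vertical axis is CPM on a linear scale of its own in each panel, with sections 1 to 9 in order of the anterior-posterior coordinate and section 9 holding 1 hexagon. The median of Atp2a2 is lowest in section 1 at 235 CPM and highest in section 5 at 438 CPM. No member passed edgeR's test between sections, while DESeq2 called Atp2a2 and Atp2b2 and limma voom called neither of them.

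Along the anterior-posterior coordinate, fitted on counts summed per section over 8 sections, 0 of 10 members passed with edgeR, against 0.244% of all genes tested, and DESeq2 and limma voom also called 0. At an unadjusted p under 0.05 there was 1 member, Mcub, with a slope of 0.33 ± 0.13 (SE), p = 0.0186 and an edgeR adjusted p of 0.207. Its section sums went from 47.3, 53.2, 24.1 and 41.0 CPM in sections 1 to 4 to 83.6, 72.3, 61.3 and 95.9 CPM in sections 5 to 8. In these sums all 4 later sections lay above all 4 earlier ones. By section median this did not hold: section 2, at 73.9 CPM, lay above sections 6, 7 and 8, at 63.5, 47.5 and 64.2 CPM. The fit also has no medial-lateral term, and the sections cover unlike ranges, such as 1286 to 1403 in section 1 and 1173 to 1326 in section 8. Mcu had its highest section median, 38.4 CPM, in section 6 and its lowest, 16.9 CPM, in section 8, with a slope of 0.28 ± 0.18 (SE) and an edgeR adjusted p of 0.445. Itpr1 had section medians of 61.6, 56.5 and 53.8 CPM in sections 1 to 3 and of 29.1, 32.2, 30.8, 39.1 and 10.9 CPM in sections 4 to 8, with a slope of -0.19 ± 0.10 (SE) and an edgeR adjusted p of 0.331. Slc8a1 was at 119, 130 and 140 CPM in sections 1 to 3 and at 82.6 to 107 CPM in sections 4 to 8, with a slope of -0.11 ± 0.07 (SE) and an adjusted p of 0.425. Sections 1 to 3 hold library sets A and B and sections 4 to 8 sets C to H. Between these 2 groups of sections, position and set cannot be told apart.

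Between sections, tested as a factor with both coordinates in the model, 0 of 10 members passed with edgeR, against 3.59% of all genes tested, and 2 had an unadjusted p under 0.05. Atp2a2 was at 227 to 330 CPM (median 235) in the 4 hexagons of section 1, at 257 to 407 CPM (median 298) in section 2 and at 301 to 634 CPM (median 438) in section 5, with overlap between them, and its edgeR adjusted p was 0.0923. It passed with DESeq2 (adjusted p 0.0102), without a filter on low counts (0.0349), without the 5 libraries of low depth (0.0459) and without section 3 (0.033). It did not pass with limma voom (0.221), with the library set as a factor or with any other section left out. Leaving out other sections gave 0.0551 (section 4) to 0.409 (section 5), with 0.398 without section 1. Atp2b2 was at 40.7 to 216 CPM (median 104) in section 8 and at 170 to 314 CPM (median 226) in section 1. Its adjusted p was 0.307 with edgeR, 0.0387 with DESeq2 and 0.25 with limma voom. The library sets follow the sections, so that set and section cannot be told apart where a section holds 1 set. With the library set as a factor, 0 of 11469 genes passed between sections. Hexagons of 1 section share a piece of tissue, so p-values between sections are too small.

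Beside the members, 68 further genes of calcium handling were listed, of which 67 are in the count table and 55 had enough counts to be tested. Along the dorsal-ventral coordinate 0 of 55 passed with edgeR, against the 0.793% of all genes, with 10 at an unadjusted p under 0.05, and DESeq2 called 0 and limma voom 2. Along the medial-lateral one 3 passed, all higher at higher coordinates, against the 1.38% of all genes. Slc24a2, a potassium-dependent sodium-calcium exchanger of neurons, rose from a median of 100.3 CPM (32.8 to 254) in the low to 210.1 CPM (41.9 to 516) in the high medial-lateral band, with a slope of 0.36 ± 0.07 (SE) and an edgeR adjusted p of 0.00248. Slc24a2 and Slc8a3 thus rose along the same axis, while the slopes of Slc24a3 (0.04 ± 0.09, SE), Slc24a4 (-0.23 ± 0.25) and Slc24a5 (-0.28 ± 0.22) did not pass. Asph, whose locus also encodes the junctional protein junctin of the ryanodine receptor complex, had a slope of 0.29 ± 0.08 (adjusted p 0.0417), and Calm2, a calmodulin gene, one of 0.09 ± 0.03 (adjusted p 0.0322).

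By group, 0 of 11 tested genes of the inositol trisphosphate route passed with edgeR on the medial-lateral axis, with 2 at an unadjusted p under 0.05 that DESeq2 called, Cd38 and Plcb1, of which limma voom called Cd38. Ahcyl1, a binding partner of the receptor, had a slope of 0.10 ± 0.05 (SE). Of 8 genes of the ryanodine receptor group 1 passed, Asph. Of 6 other pump genes and pump subunits 0 passed with edgeR, DESeq2 or limma voom, and 0 had an unadjusted p under 0.05, among them Atp2b4 at 0.16 ± 0.10 (SE). Of 12 other genes of mitochondrial calcium handling 0 passed on the medial-lateral axis with edgeR, DESeq2 or limma voom, and 1, Vdac2, had an unadjusted p under 0.05. Among them Micu3 had a slope of 0.04 ± 0.04 (SE) and Smdt1, the essential uniporter regulator, -0.01 ± 0.05. Of 5 genes of store-operated entry 0 passed with any of the 3 tools and 0 had an unadjusted p under 0.05. All 5 medial-lateral slopes were negative, with a median of -0.14, while 48.7% of all genes tested had positive ones. Of 9 buffers and sensors 1 passed, Calm2.

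Along the anterior-posterior coordinate 0 of the 55 passed with edgeR, against the 0.244% of all genes, with 14 at an unadjusted p under 0.05, while DESeq2 called 2, among them Ryr3, and limma voom 1, Ryr3. Of the mitochondrial list 11 of the 12 genes had positive slopes, beside 51.2% of all genes tested, and none of the 12 passed. Their median slope was 0.14 beside 0.01 over all genes tested. The largest were Micu2 (0.23 ± 0.14, SE) and Vdac3, an outer membrane channel (0.20 ± 0.06, edgeR adjusted p 0.125). In the test of 5 position terms 3 of 55 passed with edgeR, against 2.03% of all genes tested, among them Slc24a2 (adjusted p 0.00165) and Asph (0.0446). Between sections 7 of 55 passed with edgeR, against the 3.59% of all genes, among them Calm2 (adjusted p 5.76e-05), S100a1 (0.00531), Calb2 (0.011), Micu3 (0.0249), Calb1 (0.0338) and Cd38 (0.0471). These p-values are too small, since hexagons of 1 section share a piece of tissue. With the library set as a factor, 0 of 11469 genes passed this test, so these genes did not pass either. Calb1, the buffer calbindin, had its highest section median, 395 CPM, in section 8, and Calb2, the buffer calretinin, its highest, 114 CPM, in section 6.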

How the data were processed

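The authors deposited whole-number read counts per gene for 82 hexagons and RPKM values for 27055 of the 27515 genes. The deposited RPKM equals counts over gene length and library total, to a relative deviation of 5.2e-15. Per the submitters' processing notes, bcl2fastq 2 and STAR were used, with GRCm38. For the counting tool, the strand setting and the annotation, nothing is given in the sources used here. In the RPKM table Mcub stands for 2 gene IDs, of which the one that is Areg in GENCODE M21, with 0 counts, was left out.

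The 10 members, the gene lists and the pairs of members compared were chosen with earlier results of these data known. All members are named, as are list genes past the threshold, up to 3 more of the highest mean CPM per list, and the 3 genes with the highest r to each member. Some list genes that this rule names are not reported here.

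Slopes came from edgeR 4.0.16 (R 4.3.3, quasi-likelihood, robust, TMM) with a term for each section, on genes that reached 10 counts in at least 10 libraries. Section 9, with 1 hexagon, adds nothing to them. The anterior-posterior slope was fitted on counts summed per section over 8 sections. A standard error is the slope divided by the square root of F, and a 95% interval is its normal approximation. CPM uses TMM-scaled library totals. Differences between genes were tested on log2(CPM + 1) by permuting residuals within sections. The code was tested on simulated data.

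Alternatives were DESeq2 1.42.0 (an adjusted p given as NA stays NA), limma 3.58.1 voom, library size alone, no filter, pseudocounts of 0.5 and 5, the 77 libraries left without the 5 of low depth (totals under the median divided by 3), the letter that opens the description label as a library set, and each section and each hexagon of section 1 left out. Leaving out replicate 12 of section 7, poor in Nms, was chosen after seeing the data. Replicate numbers follow the accession order and pair nothing.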

Additional observations from a re-analysis of the deposited data

Results flagged for a closer look

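Members were checked in the 3 sections with 4 to 10 hexagons for a hexagon far from the others of its section by Dixon's test at 95%. This gave 5 flags in 30 groups of a member by section. For normally distributed values chance flags about 1 in 20 groups. The values tested were CPM on a linear scale, which can be skewed, so whether 5 flags are an excess cannot be told.

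Ryr2 stood at 87.4 CPM in replicate 1 of section 1, beside 22.2 to 28.1 CPM in the other 3 hexagons. Ryr2 stood at 174.2 CPM in replicate 6 of section 8, from 85 counts, with the next hexagon at 55.6 CPM. Mcu stood at 64.2 CPM in replicate 4 of section 8, from 28 counts, with the next at 19.7 CPM. Atp2a2 stood at 330.3 CPM in replicate 2 of section 1, with the next at 241 CPM. Atp2b1 stood at 102.1 CPM in replicate 4 of section 2, from 68 counts, below the next lowest at 232 CPM.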

How the results depend on the processing

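The dorsal-ventral call of Slc8a3 alone was kept in all 20 alternatives (slope -0.50 to -0.39, adjusted p 3.19e-05 to 0.031), and 0 members were called along the anterior-posterior coordinate in all 14. Of the 30 slopes of members, 28 stayed on their side of the threshold in every alternative, the exceptions being the medial-lateral slopes of Slc8a3 and Mcub; no called slope changed sign. With the library set as a factor the 2 members called on the medial-lateral axis became 0, the 2 of the 5-term test became 1 and the 2 medial-lateral pairs became 1. Leaving out each section, or each hexagon of section 1, in turn gave 1 to 2 members on the medial-lateral axis, 0 to 2 in the 5-term test and 0 to 1 between sections. The squares and product alone called 0. Between sections DESeq2 called 2, no filter 1 and the fit without the libraries of low depth 1. The cause was not tested. Leaving out replicate 12 of section 7, chosen after seeing the data, changed no count of members.

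Counts over all genes moved more: 44 to 799 along the dorsal-ventral coordinate (91 in the fit reported), 14 to 912 along the medial-lateral (158), 1 to 446 along the anterior-posterior (28), 81 to 3538 in the 5-term test (233, and 12 by its squares and product alone) and 0 to 4313 between sections (412). Along the anterior-posterior coordinate 13 genes were higher and 15 lower with TMM scaling, and 8 and 16 with library size alone. No paired analysis was possible because the replicate numbers follow the accession order. Depth limits Slc8a2 most, with a median of 2 counts per library.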
